A study of Mus musculus with 10 samples.

Results

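The complement genes of sorted mouse microglia were followed across 10 single cell libraries. The members are the 10 genes C1qa, C1qb and C1qc (the C1q subunits), C3 and C4b (the central and classical pathway components), Cfb and Cfp (the alternative pathway factors) and C3ar1, C5ar1 and Itgam (receptors). They were taken by symbol, 10 of the 18292 gene symbols that the count tables list, and all 10 had counts high enough to be tested. The libraries came from C57BL/6 mice with no transgene named, in 5 groups of 2 libraries: microglia isolated from adult brain (adult), microglia that floated off neonatal mixed glial cultures after 3 weeks (*in vitro*), and microglia from neonatal brain slices, without cerebellum, cultured for 1 day, 1 week or 3 weeks (slice 1 day, slice 1 week, slice 3 weeks). Adult brain and slices were taken apart cold, apart from a density gradient spin. Cells of all groups were sorted as live, CD11b high and CD45 intermediate, and sequenced with the 10x Genomics 3′ kit v2. The cultured groups came from pups and the adult group from grown mice, so age and culture cannot be told apart in any comparison with adult. Both kinds of culture were kept in serum, and the slice medium also received human PDGF at each change, so the slice and *in vitro* groups differ in this too. Several slices were pooled where cells were few, and the labels do not say which animals gave which library. Values after ± are the SD between 2 libraries. SEs, intervals and p-values of the edgeR fit rest on the spread between libraries of a group, shared over the 5 groups and across genes. Both kinds of spread may be technical.

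Complement is a cascade of plasma and tissue proteins that tags surfaces for removal. C1q, a hexamer built from the products of C1qa, C1qb and C1qc, recognises targets and starts the classical pathway, which cleaves C4 and then C3. Factor B, from Cfb, gives the protease of the alternative pathway, and properdin, from Cfp, stabilises it. C3a and C5a are read by the receptors of C3ar1 and C5ar1, and fragments of C3 on a surface are bound by complement receptor 3, a dimer of CD11b (Itgam) and CD18 (Itgb2). In the brain, microglia are known as the main source of C1q, and complement is known for its part in the removal of synapses.

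The 3 C1q genes lie side by side on the minus strand of chromosome 4 (mm10, which is GRCm38), in the order C1qb (chr4:136880129-136886187), C1qc (chr4:136889804-136893065) and C1qa (chr4:136895917-136898803). Together they span 18675 bases, with 3616 and 2851 bases between neighbours. Cfb, C4b and C3 are on chromosome 17, where Cfb (chr17:34856374-34862518) ends 85 bases from C2, and Cfp is on chromosome X (chrX:20925454-20931555). C3ar1 is on chromosome 6, and C5ar1 and Itgam are both on chromosome 7. Promoters were matched for 7 of the 10 members in RefSeq's GRCm38.p6 table; C1qa, C4b and Cfb were not matched. The 250 bases before the RefSeq start are shown for C1qb and C1qc, whose levels moved together, and for Cfp, whose level moved most, each 5′ to 3′ on its gene's strand, with matches to the core letters GAGGAA bound by PU.1, a factor of the myeloid lineage, in capitals on either strand.
C1qb, chr4:136886201-136886450, minus strand: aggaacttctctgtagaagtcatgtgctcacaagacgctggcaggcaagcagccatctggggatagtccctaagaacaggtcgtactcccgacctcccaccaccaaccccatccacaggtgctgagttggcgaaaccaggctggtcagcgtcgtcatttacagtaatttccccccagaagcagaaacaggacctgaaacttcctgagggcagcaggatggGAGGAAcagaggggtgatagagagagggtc
C1qc, chr4:136892915-136893164, minus strand: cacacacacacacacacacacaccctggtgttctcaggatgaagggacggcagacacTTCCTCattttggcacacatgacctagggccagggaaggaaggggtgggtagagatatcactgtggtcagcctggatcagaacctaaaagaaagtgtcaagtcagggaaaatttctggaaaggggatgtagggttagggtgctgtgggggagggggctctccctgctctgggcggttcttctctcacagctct
Cfp, chrX:20931556-20931805, minus strand: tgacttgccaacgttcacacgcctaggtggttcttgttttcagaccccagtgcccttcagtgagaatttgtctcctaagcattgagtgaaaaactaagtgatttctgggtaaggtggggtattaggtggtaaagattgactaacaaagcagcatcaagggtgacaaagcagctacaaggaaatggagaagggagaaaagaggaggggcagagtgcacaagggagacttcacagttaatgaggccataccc
C1qb had its match 30 bases before the RefSeq start, at position -30, and C1qc had a match on the other strand at position -193. These RefSeq starts differ from the gene spans given above, which are from GENCODE. The C1qc window lies partly inside the span of C1qc, and the C1qb window stops short of the span of C1qb. The 2 positions would therefore change with the annotation. Itgam had 2 matches, the first at -84, and the windows of Cfp, C3, C3ar1 and C5ar1 held none. Of 32851 promoter windows of this length, 23.25% held at least 1 match, so the letters are common and a match is a description only.

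Cells and depth differed between the groups. After removal of 578 barcodes, 19059 of 19637 were kept: 3799 and 3527 in the adult libraries, 2417 and 2682 *in vitro*, and 518 and 1014 (1 day), 148 and 61 (1 week) and 1153 and 3740 (3 weeks) in slices. UMIs per library ran from 385373 to 39689540, and the median per cell from 1858 in an adult library to 13966 in an *in vitro* library. The summed level of 9 microglial markers was 42534 and 42714 CPM (a gene's UMIs relative to the total of the library, on the usual CPM scale) in adult and between 4472 and 20498 in the cultured libraries, where all 9 markers were detected. Neutrophil markers, 7 on the list and all detected at 1 day and 1 week except Camp, Ltf and Mmp8 at 0 in slice 1 week library 2, summed to 7604 and 22387 CPM at 1 day and to 40183 and 955 CPM at 1 week, against at most 7.91 CPM elsewhere. Barcodes with at least 1% of their UMIs in those markers (neutrophil-marked) made up 13.1% and 11.2% of cells at 1 day and 16.9% and 1.64% at 1 week, and there were 0 in the other libraries. Barcodes with at least 3 UMIs of monocyte markers (monocyte-marked) made up 7.53% and 6.41% at 1 day, 1.35% in slice 1 week library 1 and at most 0.158% elsewhere. Pf4 and Mrc1, markers of border macrophages, carried most of a list of 5 that summed to 2233 and 2104 CPM *in vitro*, to 28.8 to 288 CPM in slices and to 10.3 and 5.59 CPM in adult. Kept cells shared at most 21 barcodes between 2 libraries. The labels give 2 study identifiers, called A and B here: adult library 1 and slice 3 weeks library 1 have A, and the other 8 libraries have B.

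Unless stated otherwise, a level is in CPM after TMM scaling (which sets the effective size of each library from the bulk of its genes), and a gene was called when the edgeR fit over all 12157 genes and 10 libraries gave an adjusted p (FDR) below 0.05 and a change over 1.5-fold. Since 3′ counting gives 1 UMI per molecule whatever its length, levels were not divided by length.

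**Figure D1:**
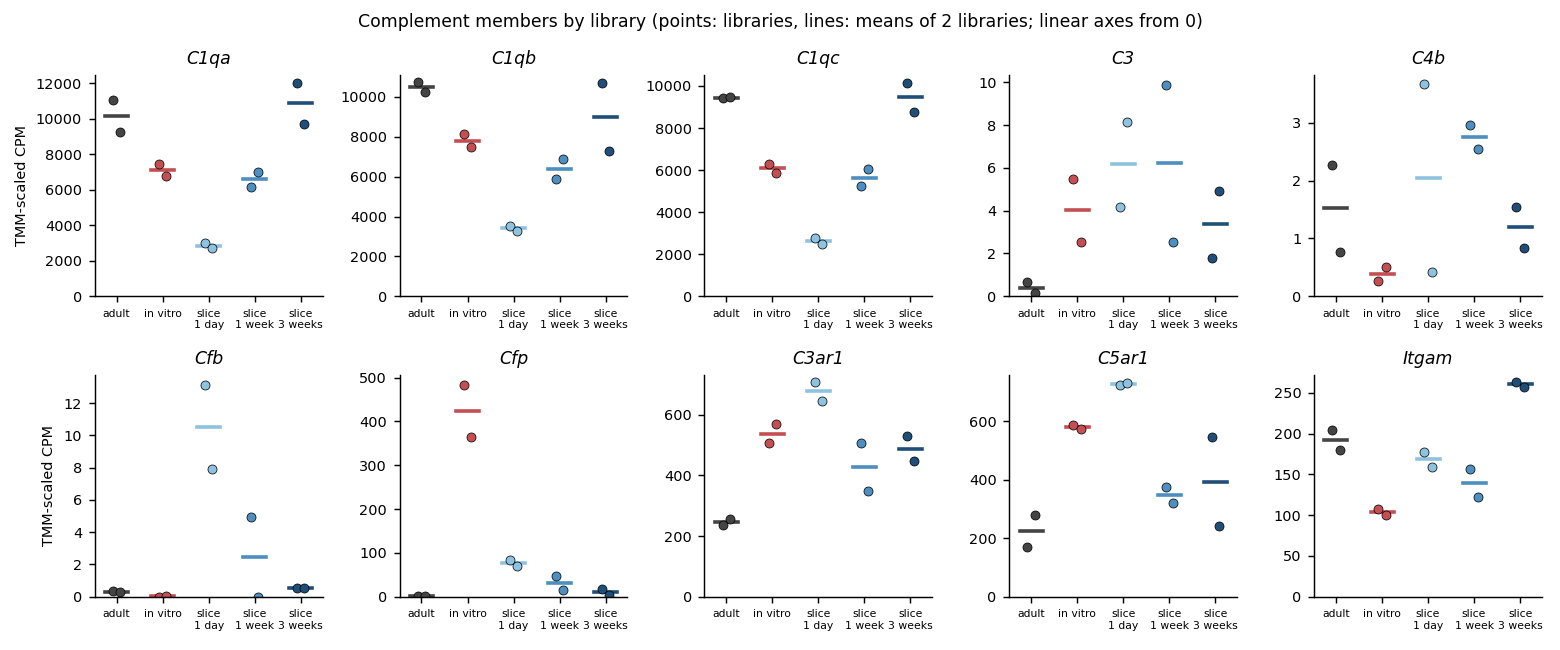
Level of each member (TMM-scaled CPM, linear axis from 0) in the 2 libraries of each group, as points, with a line at their mean. C1q levels are lowest in slice 1 day, where no library exceeds 3534 CPM for any subunit, while Cfp is highest *in vitro* (482 and 364 CPM) and C3ar1 is lowest in adult (235 and 257 CPM). C1q and Itgam *in vitro* and at 1 week lie below adult on this scale and above it as UMIs per cell with no scaling for depth, and so do Itgam at 1 day and C1qb at 3 weeks.

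Counted over the list, *in vitro* had 4 members higher and 3 lower than adult, where 22.4% of all tested genes were called higher and 28.5% lower. At 1 day 5 were higher and 3 lower (24.9% and 25.3% of all genes), at 1 week 4 and 3 (15.0% and 13.6%), and at 3 weeks 3 and 0 (17.9% and 17.5%). *In vitro* against slice 3 weeks 1 was higher and 4 lower (13.3% and 19.9%), and at 3 weeks against 1 day 4 were higher and 2 lower (13.9% and 12.8%). The median log2 change of the members was -0.47, 0.76, 0.72 and 0.55 in the 4 comparisons with adult and -0.41 and -0.52 in the other 2, beside medians over all genes of -0.11, -0.06, -0.08, -0.03, -0.10 and 0.05. The comparisons with adult share the same adult libraries. All 7 calls at 1 week were lost without slice 1 week library 1, while the 8 calls at 1 day were still 8 after leaving out any single library. Without both 1 week libraries, an alternative chosen after the data were seen, the other comparisons gave 6, 8, 3, 3 and 6 called members in place of 7, 8, 3, 5 and 6. The shares of all genes called in these alternatives are not given here.

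**Figure D2:**
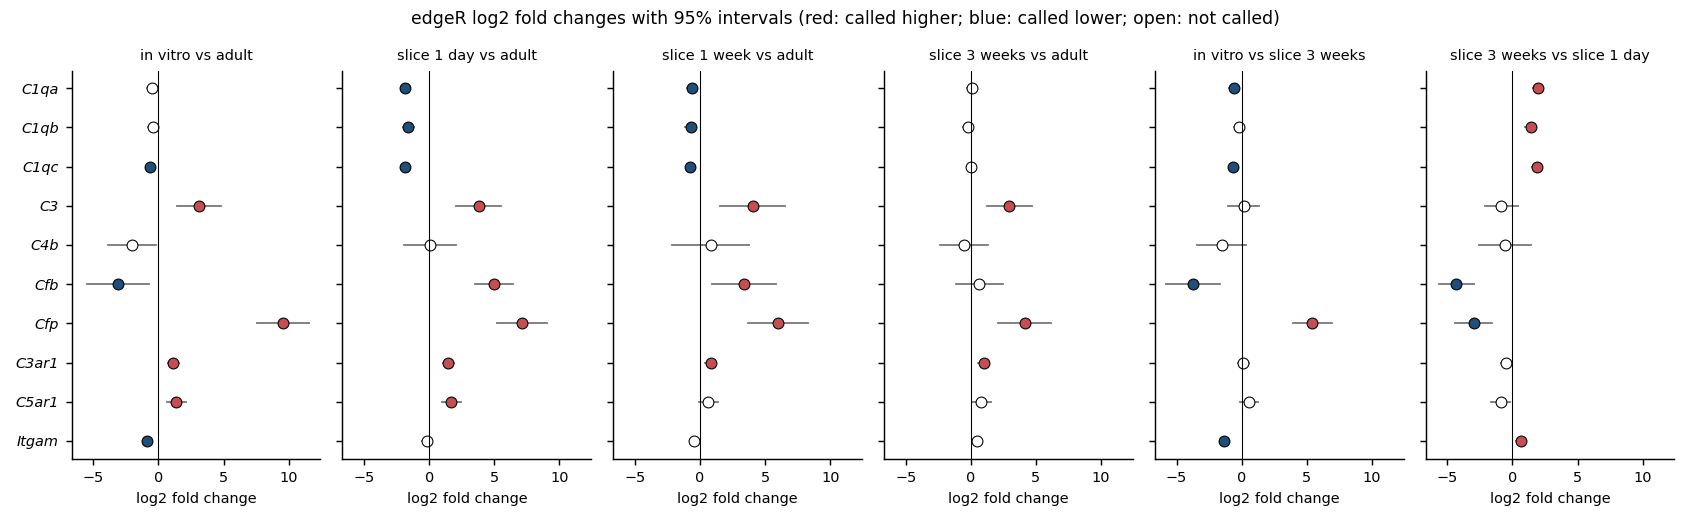
Log2 fold changes of the 10 members in the 6 comparisons from the edgeR fit, with 95% intervals as lines, red points for members called higher, blue for lower and open for not called. Cfp lies far to the right in each comparison of a culture with adult, from 4.13 at 3 weeks to 9.57 *in vitro*, and the C1q subunits are left of 0 at 1 day (-1.83, -1.62 and -1.86). As unscaled UMIs per cell the C1q values *in vitro* and at 1 week, that of C1qb at 3 weeks, those of Itgam *in vitro*, at 1 day and at 1 week, and those of C4b *in vitro* and at 3 weeks change sign against adult.

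The C1q subunits were lower than adult after 1 day in slices and were not called different from adult after 3 weeks. C1qa, the first of the 3, was at 11036 and 9242 CPM in adult, 7463 and 6769 CPM *in vitro*, 2988 and 2717 CPM at 1 day, 6130 and 7012 CPM at 1 week, and 12012 and 9686 CPM at 3 weeks. C1qb was at 10749 and 10256 CPM in adult, 8131 and 7494 CPM *in vitro*, 3534 and 3278 CPM at 1 day, 5868 and 6884 CPM at 1 week, and 10683 and 7297 CPM at 3 weeks. C1qc was at 9428 and 9459 CPM in adult, 6300 and 5882 CPM *in vitro*, 2752 and 2464 CPM at 1 day, 5256 and 6030 CPM at 1 week, and 10160 and 8751 CPM at 3 weeks. Group means of C1qa were 10139 ± 1268 CPM (SD, n = 2) in adult, 2852 ± 192 CPM at 1 day and 10849 ± 1645 CPM at 3 weeks. For each subunit both 1 day libraries were the lowest of all 10, and the ranges of slice 3 weeks and adult overlapped. In the order of group means, slice 3 weeks and adult did not separate for any subunit, *in vitro* and slice 1 week overlapped for C1qa and C1qc, and slice 1 day was last with no overlap.

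At 1 day, all 3 subunits were lower than in adult: C1qa by 3.56-fold (log2 change -1.83, SE 0.17, adjusted p = 1.5e-05), C1qb by 3.08-fold (-1.62, SE 0.19, adjusted p = 6.2e-05) and C1qc by 3.62-fold (-1.86, SE 0.15, adjusted p = 6.6e-06). Within study identifier B alone, the log2 differences of 1 day from the single adult library were -1.70, -1.59 and -1.86. Without the neutrophil-marked and monocyte-marked barcodes they were -1.62, -1.43 and -1.65, and all 3 stayed called. At 1 week the subunits were 1.54-fold, 1.65-fold and 1.67-fold lower than in adult and were called, but without slice 1 week library 1 the changes were -0.50, -0.58 and -0.62 (log2) and none was called. Without adult library 1 those of C1qa and C1qb were -0.45 and -0.64, not called either, and without slice 1 day library 2 that of C1qa was -0.57. Without the neutrophil-marked and monocyte-marked barcodes C1qa lost its 1 week call too, at -0.50, and C1qb and C1qc kept theirs. In all, the 1 week calls of C1qa, C1qb and C1qc were not kept in 10, 4 and 2 of 21 alternatives. Study identifier as a term was among these for C1qa (-0.48) and C1qb (-0.57), and DESeq2 size factors for C1qa (-0.57). At 3 weeks none was called, with log2 changes of 0.10 (95% interval -0.27 to 0.46) for C1qa, -0.22 (-0.63 to 0.19) for C1qb and 0.00 (-0.32 to 0.33) for C1qc. From 1 day to 3 weeks C1qa rose by 1.93 on the log2 scale (SE 0.17, adjusted p = 9.0e-05), C1qb by 1.40 (SE 0.19, adjusted p = 0.00066) and C1qc by 1.86 (SE 0.15, adjusted p = 8.2e-05).

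*In vitro*, the subunits were lower than in adult by amounts near the 1.5-fold limit. C1qc was called at 1.55-fold lower (adjusted p = 0.0040), C1qa was 1.42-fold lower (adjusted p = 0.022, under the fold limit) and C1qb 1.34-fold lower (adjusted p = 0.072). The call of C1qc was lost in 17 of 22 alternative fits and turned upward in 1 more, as unscaled UMIs per cell. Of the 17, 8 left out a single library, with log2 changes of -0.54 without adult library 1, -0.56 and -0.46 without *in vitro* library 1 or 2, and -0.51 to -0.52 without the others. Against slice 3 weeks, C1qa (log2 -0.61, adjusted p = 0.015) and C1qc (-0.63, adjusted p = 0.0070) were called lower *in vitro* and C1qb (-0.20, adjusted p = 0.41) was not. Without slice 3 weeks library 1 the 2 called values were -0.36 and -0.44, and without *in vitro* library 2 they were -0.46 and -0.51, in each case with the calls lost. Without either *in vitro* library 1 or either 1 week library the calls of both were lost too, at -0.54 to -0.61, and that of C1qa was lost without adult library 1 or slice 1 day library 2, at -0.57.

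These levels are shares of each library's UMIs, and cultured cells yielded more UMIs than adult cells. C1q took 3.44% and 3.31% of all UMIs in adult and 2.01% and 1.81% *in vitro*. In slices it took 0.967% and 0.862% (1 day), 1.62% and 2.02% (1 week) and 3.25% and 2.48% (3 weeks). Counted as UMIs per cell with no scaling for depth, C1q gave 112 and 63.8 UMIs in adult and 282 and 268 UMIs *in vitro*. Slices gave 68.4 and 81.0 UMIs per cell (1 day), 118 and 128 (1 week) and 220 and 148 (3 weeks). On that scale the median of all genes was itself 2.04 (log2) higher *in vitro* than in adult, and C1qa, C1qb and C1qc were 1.63, 1.74 and 1.54 higher, that is 0.40, 0.30 and 0.49 below that median. The lower share of C1q *in vitro* is therefore a statement about its part of the captured RNA. The same unscaled values at 1 day were -0.32, -0.09 and -0.32, none of them called, beside a median of 1.49 for all genes, and the 1 day and adult libraries overlapped in C1q UMIs per cell.

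**Figure D3:**
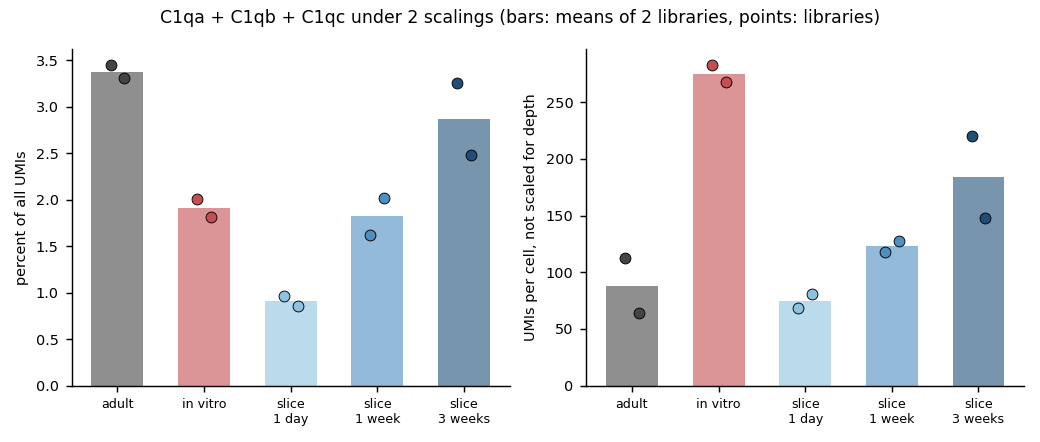
C1qa, C1qb and C1qc UMIs together, as a percent of all UMIs of a library (left) and as UMIs per cell (right), both axes from 0, with bars at the mean of 2 libraries and a point for each library. *In vitro* lies below adult on the left (2.01% and 1.81% against 3.44% and 3.31%) and above it on the right (282 and 268 against 112 and 63.8), and slice 1 day is lowest on the left.

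Single cells showed how even these levels were. Each cell outside the neutrophil-marked and monocyte-marked barcodes was thinned to 1000 UMIs, and cells with fewer were left out. The median cell then held 34 and 32 C1q UMIs in the adult libraries and 21 and 19 UMIs *in vitro*. In slices it held 9 and 8 UMIs (1 day), 16 and 19 (1 week) and 33 and 25 (3 weeks). The 10th percentile was 24 and 23 in adult, 12 and 11 *in vitro*, 2 and 3 at 1 day, and 15 and 5 at 3 weeks, while the 90th percentile was 46.4 and 43 in adult and 50 and 43 at 3 weeks. Slice 3 weeks thus had cells as rich in C1q as adult and cells with far less, in both libraries. The Fano factor of the C1q sum (variance over mean across cells, near 1 for counting noise alone) was 2.88 and 1.82 in adult and 2.45 and 2.52 *in vitro*, and higher in slices, at 10.4 and 3.20 (1 day), 5.58 and 7.28 (1 week) and 5.57 and 7.94 (3 weeks). Of these thinned cells, 0 of 3727 and 0 of 3320 in adult, 19 of 411 and 13 of 835 at 1 day, and 1 of 1153 and 49 of 3740 at 3 weeks held no C1q UMI. Among all kept cells, unthinned, the shares with a C1qa UMI were 100% in both adult libraries and 89.4% and 97.2% at 1 day. Such shares can include free RNA or mixed droplets, whose part was not tested. Among neutrophil-marked barcodes at 1 day, 51.5% and 88.6% had a C1qa UMI at median depths of 2224 and 4925 UMIs, against 97.8% and 98.9% in the unmarked cells at 7219 and 9160. In those barcodes C1q made up 0.0802 and 0.184 times its level in unmarked cells, and the 3 subunits had nearly the same ratio in each library, 0.0744 to 0.0873 in library 1 and 0.170 to 0.201 in library 2.

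**Figure D4:**
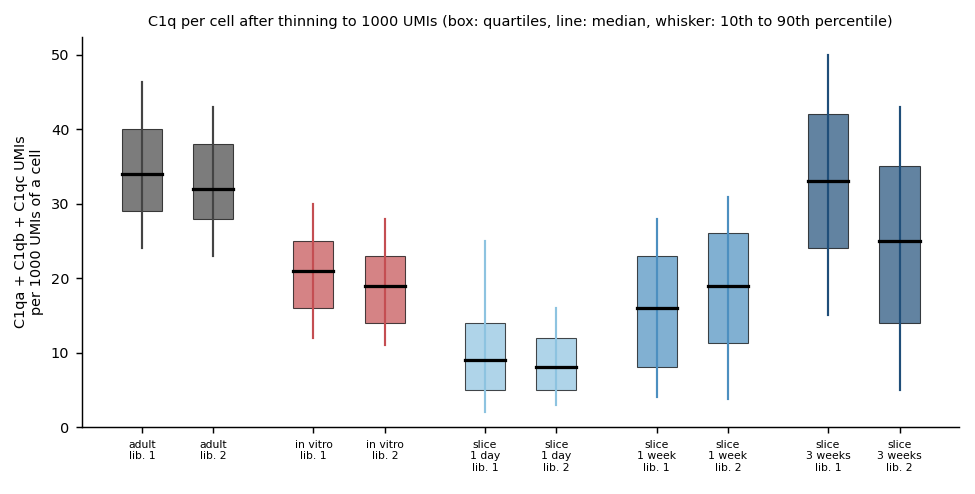
C1q UMIs per cell (C1qa, C1qb and C1qc together) after each unmarked cell was thinned to 1000 UMIs, for every library, with the median as a line, the quartiles as a box and the 10th to 90th percentiles as a whisker, on a linear axis from 0. Adult medians of 34 and 32 come with narrow boxes, slice 1 day medians are 9 and 8, and at 3 weeks the whiskers run from 15 to 50 and from 5 to 43.

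The shares of the 3 subunits in C1q differed between libraries, within groups as well as between them, over the widest range for C1qb. C1qa was 31.9% to 37.6% of C1q UMIs over the 10 libraries, C1qb 28.4% to 38.8% and C1qc 28.8% to 34.0%. C1qb was the largest share *in vitro* (37.1% and 37.2%), at 1 day (38.1% and 38.8%) and in adult library 2 (35.4%). Its smallest values were at 3 weeks (32.5% and 28.4%). The 2 adult libraries differed in C1qa, at 35.4% and 31.9%. The root mean square difference between 2 genes' log2(CPM + 1) profiles over the 10 libraries, each centred on its mean, was 0.0808 for C1qa and C1qc, 0.190 for C1qb and C1qc and 0.197 for C1qa and C1qb. The next closest pair of members was C3ar1 and C5ar1, at 0.336. Outside the members, restricted to 3907 genes whose mean log2 CPM reached 5, Slc2a8 (a sugar transporter, 0.215) and Tbxas1 (thromboxane synthase, 0.216) were closest to C1qa, against a median of 0.828 for all candidates. Slc2a8 was at 58.6 and 62.3 CPM in adult, 16.2 and 17.3 CPM at 1 day and 52.3 and 53.4 CPM at 3 weeks.

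C3, the component on which the pathways meet, was rare in every library and rarest in adult. It had 9 and 1 UMIs in the adult libraries and 171 and 91 UMIs *in vitro*, and in slices 16 and 79 (1 day), 10 and 1 (1 week) and 14 and 106 (3 weeks). As levels these were 0.659 and 0.129 CPM in adult, 5.49 and 2.55 CPM *in vitro*, 4.19 and 8.13 CPM at 1 day, 9.88 and 2.56 CPM at 1 week, and 1.81 and 4.93 CPM at 3 weeks. Both adult libraries were below the other 8, and the cultured groups overlapped in the order of their means. C3 was called higher than adult *in vitro* (8.70-fold, log2 3.12, SE 0.75, adjusted p = 0.0050), at 1 day (14.0-fold, 3.81, SE 0.77, adjusted p = 0.0020), at 1 week (16.3-fold, 4.03, SE 1.12, adjusted p = 0.020) and at 3 weeks (7.82-fold, 2.97, SE 0.78, adjusted p = 0.012). The sizes depend on 10 adult UMIs: without adult library 1 the log2 changes were 4.95, 5.59, 5.81 and 4.76. At 3 weeks the call was lost without adult library 2 (2.43, adjusted p = 0.068) or without slice 3 weeks library 2 (2.02, adjusted p = 0.15), and the log2 difference was 1.46 within identifier A and 5.26 within B. The 1 week call was lost without adult library 2 (3.49) or slice 1 week library 1 (2.50). It was also lost with study identifier as a term (3.58, adjusted p = 0.052) and after thinning to 1000 UMIs (4.98, adjusted p = 0.064).

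Most C3 UMIs at 1 day were in neutrophil-marked barcodes. These held 62.5% (10 of 16) and 59.5% (47 of 79) of the C3 UMIs at 1 day and 5 of 10 in slice 1 week library 1, while the 1 C3 UMI of slice 1 week library 2 was in an unmarked cell. At 1 day C3 was at 58.3 and 60.6 CPM inside them, before TMM scaling, and at 1.55 and 2.66 CPM in unmarked cells, ratios of 37.7 and 22.8. C1q had ratios of 0.0802 and 0.184 in the same barcodes. Without the neutrophil-marked and monocyte-marked barcodes, C3 at 1 day was still called above adult, by 2.45 (log2, adjusted p = 0.026), the 1 week value of 3.52 was not called (adjusted p = 0.053), and the difference of 3 weeks from 1 day turned from -0.84 to 0.72, not called either way. The part of other cell types in the C3 of unmarked cells was not tested. C3 UMIs were found in few cells: 5.88% and 2.95% *in vitro* and 1.21% and 2.54% at 3 weeks had a UMI, against 0.237% and 0.0284% in adult, and in thinned unmarked cells 0.6625% and 0.149% *in vitro* and 0.0867% and 0.642% at 3 weeks, against 0.0537% and 0.0301% in adult. The genes nearest to C3 in profile were Gpi1 (0.457), Selenbp1 (0.480) and Mt1 (0.50), with a median of 1.03 for all candidates, so the likeness was loose.

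C4b, the component cleaved by the classical pathway, was not called in any of the 6 comparisons. Its levels were 2.27 and 0.772 CPM in adult, 0.257 and 0.505 CPM *in vitro*, 3.67 and 0.412 CPM at 1 day, 2.96 and 2.56 CPM at 1 week, and 1.55 and 0.838 CPM at 3 weeks, from 1 to 31 UMIs per library. *In vitro* was lowest, at -2.03 against adult (log2, 95% interval -3.87 to -0.20, adjusted p = 0.058). That value was -0.89 without adult library 1 and -2.54 without adult library 2, and it passed the threshold in 6 of 22 alternatives, including without adult library 2 and without slice 1 day library 1 or 2. As unscaled UMIs per cell it was 0.02. A list of 5 astrocyte markers summed to 152 and 148 CPM in adult and to 1.62 and 1.54 CPM *in vitro*. In adult the sum was nearly all Slc1a3, which was at 0.059 and 0.025 CPM *in vitro*, while Gja1 was at 0.646 and 0 CPM in adult and 1.12 and 1.36 CPM *in vitro* and Aqp4 was at 0 in 9 libraries. The list did not move in a single direction, and its part in the C4b difference was not tested. C4b values are uncertain for a second reason: 38.1% of the 50-base words in the last 500 bases of its transcript also occur in the near-identical C4a, and reads from the pair can be lost or mixed there.

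Cfb and Cfp, both of the alternative pathway, moved in different ways. Cfb, the precursor of the pathway's protease, was mainly a gene of the first day in slices. It had 50 and 77 UMIs at 1 day (13.1 and 7.93 CPM), 5 and 0 at 1 week (4.94 and 0 CPM), 4 and 11 at 3 weeks (0.517 and 0.512 CPM), 5 and 2 in adult (0.366 and 0.257 CPM), and 0 and 2 *in vitro* (0 and 0.0561 CPM). Both 1 day libraries stood above all others. Cfb was 30.9-fold above adult at 1 day (log2 4.95, SE 0.66, adjusted p = 0.00014), and 19.7-fold lower at 3 weeks than at 1 day (log2 -4.30, SE 0.60, adjusted p = 0.00079). Neutrophil-marked barcodes held 0 of the 50 and 4 of the 77 Cfb UMIs, monocyte-marked ones 7 and 15, and without both kinds the 1 day change was 4.89 and stayed called. At 1 day 6.95% and 5.82% of cells had a Cfb UMI, against 0.132% and 0.0284% in adult.

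The other Cfb differences rest on very few UMIs. The 1 week call (log2 3.37, adjusted p = 0.042) came from 5 UMIs of a single library, and slice 1 week library 2, with 0 UMIs in 61 cells, gives no direction by itself, since its floor of 3 counts (7.78 CPM) lies above the adult level. That call was also lost without either library of adult, slice 1 day or slice 3 weeks, at 3.18 to 3.73. *In vitro* was called lower than adult (adjusted p = 0.030) from 2 UMIs against 7, a ratio of 0.0916 with a counting interval of 0.00929 to 0.481, and lower than slice 3 weeks (adjusted p = 0.010) from 2 against 15, a ratio of 0.0583 (0.00647 to 0.251). The first of these calls was lost without adult library 1 or 2 or *in vitro* library 1 (log2 -2.68, -3.28 and -2.20), and the second without *in vitro* library 1 or slice 3 weeks library 2 (-2.90 and -3.67). In addition, 91.6% of the 50-base words in the last 500 bases of the Cfb transcript are shared with Gm20547, an overlapping gene on the same strand, so reads there may have been set aside and Cfb may be undercounted in all libraries alike.

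Cfp, which encodes properdin, showed the widest range of the 10 members. It was at 482 and 364 CPM *in vitro* (15037 and 12981 UMIs), 83.8 and 70.6 CPM at 1 day (320 and 686 UMIs), 46.4 and 15.3 CPM at 1 week (47 and 6 UMIs), 18.0 and 3.16 CPM at 3 weeks (139 and 68 UMIs), and 0.805 and 0.129 CPM in adult (11 and 1 UMIs). Group means were 423 ± 83.8 CPM *in vitro*, 77.2 ± 9.32 CPM at 1 day, 10.6 ± 10.5 CPM at 3 weeks and 0.467 ± 0.478 CPM in adult (SD, n = 2 each). *In vitro* and 1 day each stood clear of the groups below them, 1 week and 3 weeks overlapped, and all 8 cultured libraries were above both adult libraries. Against adult, Cfp was called higher *in vitro* (log2 9.57, SE 0.90, adjusted p = 1.0e-05), at 1 day (7.11, SE 0.88, adjusted p = 8.6e-05), at 1 week (5.98, SE 1.03, adjusted p = 0.0018) and at 3 weeks (4.13, SE 0.92, adjusted p = 0.0053). The summed UMIs give ratios to adult of 749 (95% counting interval 429 to 1450) *in vitro*, 133 (75.7 to 258) at 1 day and 12.7 (7.09 to 24.9) at 3 weeks. These sizes turn on the 12 adult UMIs and on the uneven slice 3 weeks pair. Without adult library 1 the log2 changes were 11.67, 9.16, 8.03 and 6.19, and without slice 3 weeks library 1 or 2 the 3 weeks change was 2.55 or 5.07, still called. Within identifier A the 3 weeks difference was 4.48 and within B it was 4.62. Without slice 1 week library 1 the 1 week change was 4.81 and was not called. After thinning the 1 week change was 5.45, not called either (adjusted p = 0.13). *In vitro* exceeded slice 3 weeks by 5.44 (log2, SE 0.68, adjusted p = 0.00019; 7.14 and 4.62 without slice 3 weeks library 1 or 2), and 3 weeks was below 1 day by 2.98 on the log2 scale, a fitted change of -2.98 (SE 0.63, adjusted p = 0.0062; -4.61 and -2.09 without slice 3 weeks library 1 or 2).

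*In vitro*, 91.8% and 91.2% of kept cells had a Cfp UMI, and 33.2% and 27.4% of unmarked cells after thinning to 1000 UMIs. No cell type without Cfp was set apart there to give the share that free RNA alone would reach. In slices a minority had a UMI, 25.5% and 31.7% of kept cells at 1 day (20.2% and 26.8% of unmarked cells), 8.15% (94 of 1153) and 45 of 3740 cells at 3 weeks, against 0.290% and 0.0284% in adult. In thinned unmarked cells of the same slice libraries the shares were 3.16%, 5.15%, 2.26% and 0.187%. Monocyte-marked barcodes at 1 day carried 118 of 320 and 141 of 686 Cfp UMIs, at 8.76 and 5.24 times the level of unmarked cells, and neutrophil-marked ones carried 31 and 96. Without both kinds the 1 day change was 6.59 and stayed called. Among unmarked cells, those with a UMI of Mrc1 or Pf4, a split chosen after the values were seen, held 87 of 171 and 288 of 449 Cfp UMIs at 1 day, 29 of 29 and 6 of 6 at 1 week, and 74 of 139 and 38 of 68 at 3 weeks. They were 116 of 411 and 383 of 835 unmarked cells at 1 day, 60 of 121 and 21 of 60 at 1 week, and 227 of 1153 and 292 of 3740 at 3 weeks, where Cfp was at 41.8 and 17.6 CPM in them and at 10.7 and 1.49 CPM in the rest. *In vitro* 2401 of 2415 and 2672 of 2682 unmarked cells had such a UMI. The split was made on unthinned cells, so deeper cells enter it more readily and can also hold more Cfp UMIs. Its shares of UMIs are not corrected for depth. The summed border macrophage list moved with Cfp across groups (2233 and 2104 CPM *in vitro*, 10.3 and 5.59 CPM in adult), although Lyve1 and Cd163 stayed at or below 1.11 CPM *in vitro*, and the part of such cells in the Cfp levels was not tested.

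**Figure D5:**
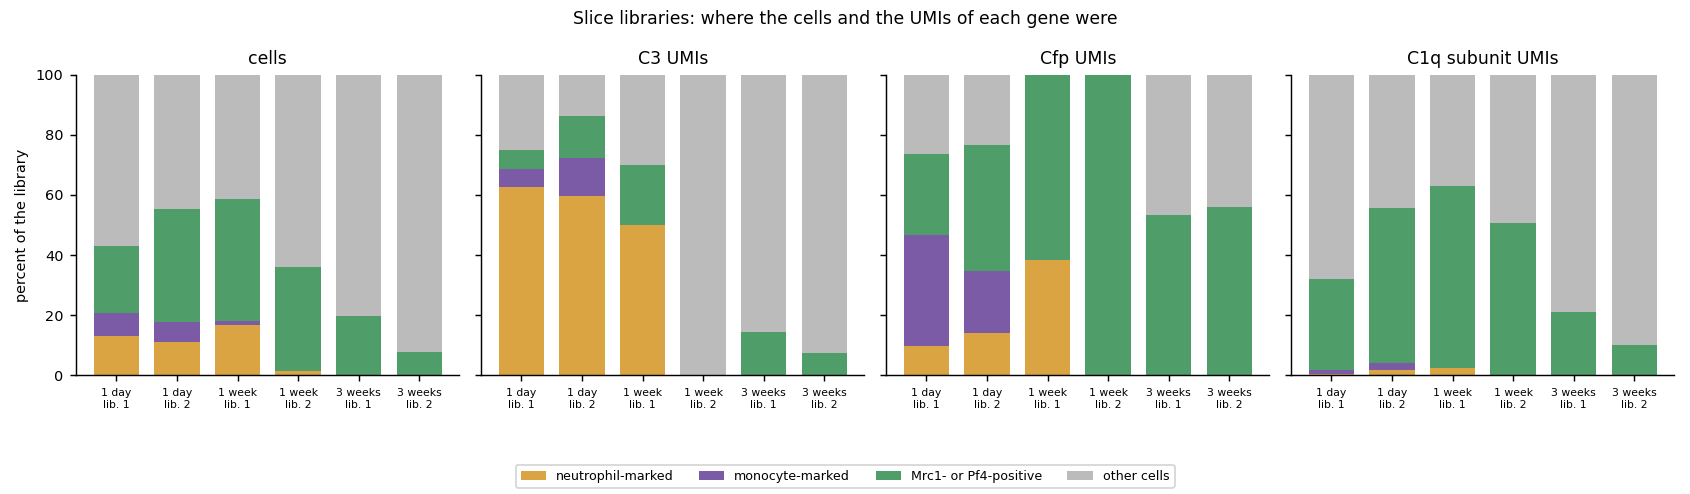
Percent of cells, C3 UMIs, Cfp UMIs and C1q subunit UMIs (axes from 0 to 100%) in each slice library that fell in neutrophil-marked barcodes, monocyte-marked barcodes, cells with an Mrc1 or Pf4 UMI, or other cells. C3 at 1 day is mostly in neutrophil-marked barcodes (62.5% and 59.5%), Cfp at 1 day is spread over all 4 classes, and C1q is almost absent from the 2 marked classes.

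The receptor C3ar1, which binds C3a, was higher than adult in all 4 cultured groups. It was at 235 and 257 CPM in adult, 507 and 570 CPM *in vitro*, 709 and 647 CPM at 1 day, 507 and 348 CPM at 1 week, and 530 and 447 CPM at 3 weeks. All 8 cultured libraries were above both adult libraries, with means of 246 ± 14.9 CPM in adult and 678 ± 44.0 CPM at 1 day (SD, n = 2 each). The rises were 2.19-fold *in vitro* (log2 1.13, SE 0.19, adjusted p = 0.00051), 2.75-fold at 1 day (1.46, SE 0.19, adjusted p = 0.00012), 1.75-fold at 1 week (0.81, SE 0.19, adjusted p = 0.0098) and 1.99-fold at 3 weeks (0.99, SE 0.19, adjusted p = 0.0021). The 1 week call was lost without slice 1 week library 1 (0.53) and after thinning (0.59, adjusted p = 0.12). The 3 weeks difference was 1.17 within identifier A and 0.80 within B. In neutrophil-marked barcodes C3ar1 was at 0.0427 and 0.137 times its level in unmarked cells at 1 day, no more than C1q. Of thinned unmarked cells, 21.7% and 24.6% had a C3ar1 UMI in adult, 36.7% and 38.1% *in vitro*, 42.1% and 46.2% at 1 day, and 38.2% and 31.7% at 3 weeks.

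C5ar1, the receptor of C5a, was called higher than adult *in vitro* and at 1 day. Its levels were 171 and 279 CPM in adult, 589 and 573 CPM *in vitro*, 725 and 732 CPM at 1 day, 376 and 322 CPM at 1 week, and 545 and 240 CPM at 3 weeks. The adult (225 ± 76.4 CPM, SD, n = 2) and slice 3 weeks (393 ± 215 CPM) libraries were uneven and overlapped, while the other groups lay above adult. The change was 2.58-fold *in vitro* (log2 1.37, SE 0.33, adjusted p = 0.0052) and 3.24-fold at 1 day (1.70, SE 0.34, adjusted p = 0.0017). At 3 weeks it was 1.75-fold (log2 0.80, 95% interval 0.07 to 1.54, adjusted p = 0.077), not called, with a difference of 1.67 within identifier A and -0.21 within B. It was called without adult library 2 (log2 1.196) or slice 3 weeks library 2 (1.34), and without slice 3 weeks library 1 the uncalled differences of *in vitro* (0.57) and 1 day from 3 weeks became called, at 1.36 *in vitro* and -1.60 for 3 weeks against 1 day. The 3 weeks change was also called by DESeq2 (0.84), after thinning (0.85), with no filter on low counts (0.87) and as unscaled UMIs per cell (2.03). At 1 week it was 0.64 (-0.11 to 1.39, adjusted p = 0.18), not called, but it was called without slice 3 weeks library 1 or 2 (0.63 and 0.64), with only the adult and 1 week groups in the fit (0.70), with no filter on low counts (0.59) and as unscaled UMIs per cell (1.92). Neutrophil-marked barcodes carried C5ar1 at 1.61 and 0.813 times the level of unmarked cells at 1 day, and held 7.23% and 6.71% of its UMIs, and without both kinds of marked barcodes the change was 1.73 and stayed called. The profiles nearest to C5ar1 were those of Ran (nuclear transport, 0.265), Mrpl33 (mitochondrial ribosome, 0.279) and Snrpd1 (spliceosome, 0.288), against a median of 0.743.

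Itgam encodes CD11b, the protein on which the cells were sorted, so its RNA was measured among cells already chosen for high protein. It was at 204 and 180 CPM in adult, 107 and 100 CPM *in vitro*, 177 and 160 CPM at 1 day, 157 and 123 CPM at 1 week, and 264 and 257 CPM at 3 weeks. Means ran from 104 ± 4.99 CPM *in vitro* to 260 ± 5.08 CPM at 3 weeks (SD, n = 2 each). No 2 neighbouring groups in the order of means overlapped, with 3 weeks highest and *in vitro* lowest. *In vitro* was 1.85-fold below adult (log2 -0.89, SE 0.15, adjusted p = 0.00055; 1.26 above it as unscaled UMIs per cell, where the median of all genes was 2.04) and 2.51-fold below 3 weeks (-1.33, SE 0.15, adjusted p = 0.00010; -0.26, not called, as unscaled UMIs per cell). Slice 3 weeks was 1.55-fold above 1 day (log2 0.63, SE 0.15, adjusted p = 0.011), a call lost in 5 of 22 alternatives, without slice 1 day library 2 (0.56, adjusted p = 0.095), after thinning (0.49), with study identifier as a term (0.58), with library size alone (0.55) and as unscaled UMIs per cell (0.20), and 1.36-fold above adult (adjusted p = 0.038, under the fold limit). Neutrophil-marked barcodes held 7.99% and 10.3% of Itgam UMIs at 1 day, at 1.88 and 1.34 times the level of unmarked cells.

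Cells with a Gpnmb UMI (a gene of lysosomal and lipid-laden microglia) were 1795 of 2417 and 2345 of 2682 *in vitro*, 291 of 1153 and 635 of 3740 at 3 weeks, and 0 in adult. In them C1q was at 0.84 and 0.82 times the level of the other cells *in vitro* and at 0.86 and 0.79 times at 3 weeks, Itgam at 0.74, 0.83, 0.64 and 0.65 times, and C3ar1 at 0.93, 0.99, 1.22 and 1.23 times. Cfp was at 0.87 and 0.81 times *in vitro* and at 1.34 and 2.65 times at 3 weeks. The split by Gpnmb used unthinned cells, whose median depth was highest *in vitro* and lowest in adult. Its cell counts are therefore not comparable between groups, and its values at 1 day and 1 week are not given here. Cells with at least 1% of UMIs in interferon genes numbered at most 7 in a library, too few for their levels to be described.

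The rest of the complement system was read from a list of 49 further genes, of which 34 were in the count tables and 19 could be tested. Against adult, 6 were called higher and 6 lower *in vitro* (22.4% and 28.5% of all tested genes), with 9 and 6 for slices of 1 day (24.9% and 25.3%), 7 and 3 for 1 week (15.0% and 13.6%) and 7 and 3 for 3 weeks (17.9% and 17.5%). The numbers were 5 and 6 for *in vitro* against 3 weeks (13.3% and 19.9%), and 5 and 2 for 3 weeks against 1 day (13.9% and 12.8%). Described here are genes with a mean of at least 10 CPM, and C2, chosen after its values were seen, because it neighbours Cfb. C1rl, a protease related to C1r, was lower than adult *in vitro* (log2 change -1.90), at 1 day (-1.215) and at 3 weeks (-0.67), although as unscaled UMIs per cell these were 0.28, 0.35 and 0.44, not called. C2, a classical pathway protease that lies beside Cfb, was higher than adult in all 4 cultures, by 3.17 *in vitro*, 2.17 at 1 day, 3.88 at 1 week and 3.63 at 3 weeks, on 12 and 3 adult UMIs.

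Among receptors and regulators, C5ar2, the second receptor of C5a, fell in cultures where C5ar1 rose or was not called. It was at 48.8 and 55.6 CPM in adult, 9.27 and 6.79 CPM *in vitro*, 12.8 and 8.54 CPM at 1 day and 15.8 and 13.4 CPM at 3 weeks, and was called lower in all 4 cultures (log2 -2.70, -2.34, -0.92 and -1.85 *in vitro*, at 1 day, at 1 week and at 3 weeks), while as unscaled UMIs per cell none of the 4 was called (-0.51, -0.76, 0.27 and -0.71) and with DESeq2 size factors the 1 week call was lost (-0.86, adjusted p = 0.059). Itgb2, the partner of Itgam, was lower than adult *in vitro* (-1.07), at 1 day (-0.68) and at 1 week (-0.59), and lower *in vitro* than at 3 weeks (-1.26, adjusted p = 0.00043), as Itgam was, but as unscaled UMIs per cell it was called higher than adult *in vitro* (1.13) and in slices of 1 day (0.88), with an uncalled 0.63 at 1 week, and its difference of *in vitro* from 3 weeks was -0.21, not called. The 1 week call of Itgb2 was also lost with DESeq2 size factors (-0.53, adjusted p = 0.060). Cr1l, a membrane regulator that limits C3 on the cell's own surface, was lower than adult in all 4 cultures, by log2 changes of -1.13, -0.80, -0.94 and -0.62, but as unscaled UMIs per cell it was called higher *in vitro* (1.05) and in slices of 1 day (0.76), with uncalled values of 0.25 and 0.49 for the later slices. On that scale the median of all genes moved up by 1.05 to 2.04 against adult, and each of these values of Itgb2 and Cr1l lay below it. Lrp1, an endocytic receptor, was higher at 3 weeks than in adult (0.78), at 1 day (1.15) and *in vitro*, which was lower by -1.07 (as unscaled UMIs per cell, 0.01, and an uncalled 0.71 for 3 weeks against 1 day). Scaled by library size alone, Lrp1 at 3 weeks was 0.58 above adult, under the fold limit. C1qbp and Calr, which bind C1q, were called higher than adult at 1 day (1.28 and 0.89). At 3 weeks they were at 0.55 and 0.59, not called, and Calr was called there with DESeq2 size factors (0.63), while both were called in all 4 cultures as unscaled UMIs per cell.

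The collectin and ficolin genes and Cd93 were close to absent from adult. Cd93, a receptor linked to the uptake of dying cells, had 0 UMIs in both adult libraries and 112 and 115 CPM *in vitro*, at least 812-fold higher when adult is set to a floor of 3 counts over its 2 libraries. It was at 3.67 and 4.22 CPM at 1 day, 9.88 and 10.2 CPM at 1 week and 1.55 and 2.84 CPM at 3 weeks, at least 29.0-fold, 71.3-fold and 17.8-fold higher than adult. Colec12, a scavenger receptor with a collectin domain, had 2 UMIs in adult and 155 and 153 CPM *in vitro*, with 60.1 and 77.2 CPM at 3 weeks, ratios of 1650 (457 to 13625) and 779 (215 to 6433) with counting intervals. Fcna, a lectin pathway ficolin, had 1 adult UMI and was at 26.7 and 47.0 CPM *in vitro*, 76.0 and 10.2 CPM at 1 week and 4.65 and 12.1 CPM at 3 weeks.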

How the data were processed

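Microglia of 10 libraries were measured by 10x Genomics 3′ single cell sequencing. The authors deposited tables of whole-number UMI counts per gene and cell, made with Cell Ranger 1.3.0 on mm10 according to the submitters' processing notes, with no normalization. Whether the tables precede or follow a step that evens depth between libraries is not given in the sources used here. By the limits that the study set before clustering, a barcode was dropped if mitochondrial genes gave more than 5% of its UMIs, if it had fewer than 400 detected genes, or if its UMIs exceeded 30000. The study also removed outliers by t-SNE, which was not repeated, and the numbers of cells it states are lower at 1 week, so the cells used here are not the same set. Of the gene symbols, 13 were listed more than once and were summed, and a gene missing from a table counted 0. No doublet caller was run.

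UMIs were summed per library, and edgeR 4.0.16 (R 4.3.3, limma 3.58.1) fitted its quasi-likelihood test with TMM to the 5 groups of 2 over 12157 genes kept by a minimum count of 10, with Benjamini-Hochberg adjustment. The common biological coefficient of variation was 18.3%. Exact permutation of 2 against 2 libraries cannot reach 0.05 and was not used. Steps were tested on simulated data. Counting intervals are exact at 95%, and cover counting error only. A floor of 3 counts was used where a group was at 0.

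All members were named. From the list of other complement genes, those with a mean of at least 10 CPM were named, and the 3 genes nearest in profile to C1qa, C3 and C5ar1. Some genes that this rule takes are not reported here. Members and lists were chosen with earlier results of these data known. The split by Mrc1 or Pf4 and the fit without both 1 week libraries were added after the data were seen. Sequences came from RefSeq and gene positions from GENCODE M21, both GRCm38. DESeq2 1.42.0, other scalings, filters, thinning, study identifier, marked barcodes, block and each library left out were the alternatives. Python 3.11.15 with numpy 2.4.6, pandas 2.3.3, scipy 1.17.1 and matplotlib 3.10.9 did the rest.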

Additional observations from a re-analysis of the deposited data

Results flagged for a closer look

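For 6 members, effects against adult differed between culture conditions by the direct contrast in the same edgeR fit. *In vitro* against slice 3 weeks, the log2 differences were -0.61 for C1qa, -0.63 for C1qc, -3.74 for Cfb, 5.44 for Cfp and -1.33 for Itgam. Slice 3 weeks against slice 1 day, they were 1.93 for C1qa, 1.40 for C1qb, 1.86 for C1qc, -4.30 for Cfb, -2.98 for Cfp and 0.63 for Itgam. The Cfb value *in vitro* came from 2 UMIs, and the first 2 values lost their calls in 16 and 11 of 22 alternatives. Of all tested genes, 13.3% were called higher and 19.9% lower *in vitro* against slice 3 weeks. For slice 3 weeks against slice 1 day these shares were 13.9% and 12.8%.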

How the results depend on the processing

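Over the 10 members and 6 comparisons, 1135 alternative values kept their direction and their side of the threshold, 94 lost and 38 gained a call in the same direction, 12 changed sign with a call before or after, and 28 changed sign with none. The 7 members called at 1 week became 3 with study identifier as a term and 3 after thinning, and between 0 (without slice 1 week library 1) and 7 with a single library left out. The 3 called at 3 weeks became 8 as UMIs per cell without scaling for depth, where the median of all genes was itself 1.05 (log2) above adult. They became 3 to 4 with a library left out. The shares of all genes called in these alternatives are not given here, so such counts are not a trait of the members. The 5 called for *in vitro* against 3 weeks became 3 with study identifier, 3 with only those 2 groups, 2 after thinning, 3 without both 1 week libraries, and 2 to 5 with a library left out. With a library left out, the other counts were 5 to 8 *in vitro*, 8 at 1 day and 5 to 8 for 3 weeks against 1 day, and over all alternatives they were 5 to 10, 6 to 8 (6 as UMIs per cell) and 5 to 8. As unscaled UMIs per cell, values against adult turned to 1.63, 1.74 and 1.54 (C1qa, C1qb and C1qc) and 1.26 (Itgam) *in vitro*, 1.33 (Itgam) at 1 day, 0.53, 0.46 and 0.45 (C1qa, C1qb and C1qc) at 1 week and 0.89 (C1qb) at 3 weeks, and *in vitro* against 3 weeks to 0.45 (C1qa) and 0.43 (C1qc). That scale has no depth term, and it moved the median of all genes by 0.97 to 2.04 in those comparisons. Cfb at 1 week was at most 3.86 with a library left out, and the fitted -5.20 without slice 1 week library 1 is set by a library at 0 UMIs and gives no direction or size. With the replicate number as a block, 7, 8, 6 and 3 members were called against adult, 5 for *in vitro* against 3 weeks and 6 for 3 weeks against 1 day, and Cfb lost its call at 1 week. Deviations of same-numbered libraries correlated at -0.13 to 0.12. With 2 libraries a group this cannot show whether the numbers pair the samples, and the labels do not say. Thinning left no Cfb UMI *in vitro* or at 3 weeks. Other causes were not tested. The 148 and 61 cells at 1 week and the low counts of C3, C4b and Cfb, and of Cfp in adult, limit these values.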
